A study of Mus musculus with 33 samples.

Results

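The 9 keratin genes named here and Trp63 were followed through the reprogramming of mouse fibroblasts: the simple epithelial keratins Krt7, Krt8, Krt18 and Krt19, the basal keratins Krt5, Krt14 and Krt15, the stress keratins Krt6a and Krt17, and the basal epithelial regulator Trp63. They were chosen by name, as 10 of the 37583 gene IDs counted in each library, and all 10 were among the 17326 genes with enough reads to test. Poly-A RNA of 33 libraries was sequenced in 11 groups of 3. The groups were mouse embryonic fibroblasts (MEF) in MEF medium, and cells in ES medium with dox (doxycycline) and AA at days 3, 6, 9 and 12 and at the iPS stage, each sorted after trypsin into fractions with (SSEA1+) and without (SSEA1-) the surface carbohydrate SSEA1, an antigen of mouse pluripotent cells. All groups share the strain label 129SV/Jae/C57BL6J. The labels do not say what doxycycline induced or whether replicates came from separate cultures, so p-values measure the spread between these libraries, which may be technical.

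Keratins are the intermediate filament proteins of epithelial cells. A filament needs a type I partner (Krt14, Krt15, Krt17, Krt18 or Krt19) and a type II partner (Krt5, Krt6a, Krt7 or Krt8). Krt8 with Krt18 marks single-layered epithelia and the first embryonic epithelium, trophectoderm, while Krt5 with Krt14 marks the basal layer of stratified epithelia. Trp63 encodes p63, a transcription factor of the p53 family that is needed for stratified epithelium and binds regulatory DNA of basal keratin genes. Fibroblasts use vimentin filaments instead, and cells undergoing reprogramming pass through a mesenchymal-to-epithelial transition.

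Reads in genes ran from 8.93 to 41.69 M per library, with a median of 23.15 M. Levels are given as CPM, counts scaled to a common library total after TMM, with replicates 1, 2 and 3 in that order, and fold changes as log2 change ± standard error. A gene was called where edgeR's quasi-likelihood test gave a Benjamini-Hochberg adjusted p under 0.05 over all tested genes and the change was at least 2-fold. Markers followed the labels: the 10 fibroblast markers summed to 75968 to 83812 CPM in MEF, and the 8 pluripotent cell markers to 4166 to 6303 CPM in iPS-stage SSEA1+ cells. One library stood apart from its group. In iPS-stage SSEA1- replicate 3 the pluripotent markers summed to 2431 CPM, against 109 and 362 CPM in replicates 1 and 2. It also held the lowest level of each of the 10 genes in its group, so values without it are given beside the iPS-stage SSEA1- results. In bulk RNA, fewer cells of a type and less RNA per cell cannot be told apart.

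The sequences before 3 of the genes are shown because Krt8 and Krt18 encode filament partners whose levels parted in the SSEA1+ cells, and because Krt5 stands for the basal genes that came late. Each run is the RefSeq window of build GRCm38.p6 from 250 bases before to 50 after the gene's start, and capitals mark motif matches.
Krt5, chr15:101712856-101713155, minus strand: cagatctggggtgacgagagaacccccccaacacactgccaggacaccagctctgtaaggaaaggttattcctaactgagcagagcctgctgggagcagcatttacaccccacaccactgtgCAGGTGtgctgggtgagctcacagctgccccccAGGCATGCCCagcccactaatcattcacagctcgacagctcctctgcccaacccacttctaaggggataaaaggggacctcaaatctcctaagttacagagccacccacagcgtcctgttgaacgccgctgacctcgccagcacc
Krt8, chr15:102004293-102004592, minus strand: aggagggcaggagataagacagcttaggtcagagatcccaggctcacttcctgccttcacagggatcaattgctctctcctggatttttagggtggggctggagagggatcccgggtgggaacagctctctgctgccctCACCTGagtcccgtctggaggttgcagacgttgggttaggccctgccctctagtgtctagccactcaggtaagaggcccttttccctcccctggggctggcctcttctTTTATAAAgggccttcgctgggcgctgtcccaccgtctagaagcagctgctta
Krt18, chr15:102027966-102028265, plus strand: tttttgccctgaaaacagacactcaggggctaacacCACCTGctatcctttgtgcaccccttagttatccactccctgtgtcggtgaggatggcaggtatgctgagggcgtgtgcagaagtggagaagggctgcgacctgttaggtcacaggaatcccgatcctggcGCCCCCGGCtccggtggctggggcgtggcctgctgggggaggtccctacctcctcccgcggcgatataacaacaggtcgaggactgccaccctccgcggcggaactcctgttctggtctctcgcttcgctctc
Motifs were searched on both strands. The Krt8 window held TATAAA at its start site, a sequence in 13.6% of 32851 RefSeq windows of the same length, read on both strands over overlapping letters. The Krt18 window held the AP-2 letters GCCNNNGGC (16.6% of windows). The Krt5 window held a p53 family half-site (8.4% of windows), matched on both strands because the searched pattern is symmetric. All 3 held CACCTG (20.2% of windows), and none held GGGCGG (35.7% of windows). A match is a description of letters and no evidence of binding. RefSeq windows were at hand for 5 of the 10 genes, and those of Krt7 and Krt14 lay 1360 and 1518 bases from the gene's first base in the GENCODE annotation and are not shown. The start sites of the windows shown lay 7 (Krt5), 140 (Krt8) and 36 (Krt18) bases from the first base in that annotation.

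Trp63 was expressed mostly in SSEA1- cells, from day 6 on. In MEF it was near the limit of detection, at 0.291, 0.093 and 0.139 CPM (7 reads in all). SSEA1- cells held 0.122, 1.32 and 1.24 CPM at day 3, then 5.1, 6.99 and 5 CPM at day 6. Later levels overlapped those of day 6, with 6.31, 7.06 and 2.72 CPM at day 9 and 5.96, 7.93 and 3.46 CPM at day 12. The iPS-stage SSEA1- libraries held 15.4, 13.1 and 1.64 CPM. Replicate 3, the library rich in pluripotent markers, was the low one.

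SSEA1+ cells carried far less Trp63. They held 0, 0.133 and 0.256 CPM at day 3, 0.299, 0.374 and 0.475 at day 6, and 0.704, 1.02 and 0.479 at day 9. The levels were 0.291, 1.15 and 1.35 CPM at day 12 and 2.07, 0.557 and 0.629 CPM at the iPS stage. At days 6, 9 and 12 every SSEA1- library exceeded every SSEA1+ library. The difference, SSEA1+ against SSEA1-, was -3.88 ± 0.85 at day 6 (adjusted p = 0.0017), -2.86 ± 0.80 at day 9 (adjusted p = 0.0063) and -2.64 ± 0.79 at day 12 (adjusted p = 0.007). For iPS-stage cells it was -3.20 ± 0.80 (adjusted p = 0.0018), with overlap between the fractions through replicate 3, and -3.74 without that library (adjusted p = 0.00019). These 4 differences passed the test whichever of the libraries was left out. At day 3 the fractions overlapped, and the change of -2.84 ± 0.94 (adjusted p = 0.048) was lost on leaving out SSEA1- replicate 2 or 3 or any SSEA1+ library (adjusted p = 0.062 to 0.17). It also fell short without the low-count filter (adjusted p = 0.054) and with the GC trend removed (adjusted p = 0.065).

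Against MEF, Trp63 rose in SSEA1- cells by 4.87 ± 0.96 at day 6 (adjusted p = 0.00026), 4.79 ± 0.96 at day 9 (adjusted p = 0.00034), 4.90 ± 0.96 at day 12 (adjusted p = 0.00028) and 5.69 ± 0.98 at the iPS stage (adjusted p = 8.8e-05; 6.19 without replicate 3). Each call held with any single library left out. In SSEA1+ cells the calls depended on single libraries. At day 12 the change was 2.26 ± 0.96 (adjusted p = 0.044), lost on leaving out any MEF library or SSEA1+ replicate 2 or 3 (adjusted p = 0.063 to 0.15), with RLE size factors (adjusted p = 0.052) and without the low-count filter (adjusted p = 0.061). In iPS-stage cells it was 2.49 ± 0.96 (adjusted p = 0.026), lost without MEF replicate 2 or 3 or SSEA1+ replicate 1, the last of which lowered it to 1.57 (adjusted p = 0.20). The size of the SSEA1 difference in Trp63 did not change detectably from day 3 to day 12 (interaction 0.20 ± 0.99, adjusted p = 0.93) or from day 12 to the iPS stage (-0.56 ± 1.06, adjusted p = 0.89).

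**Figure D1:**
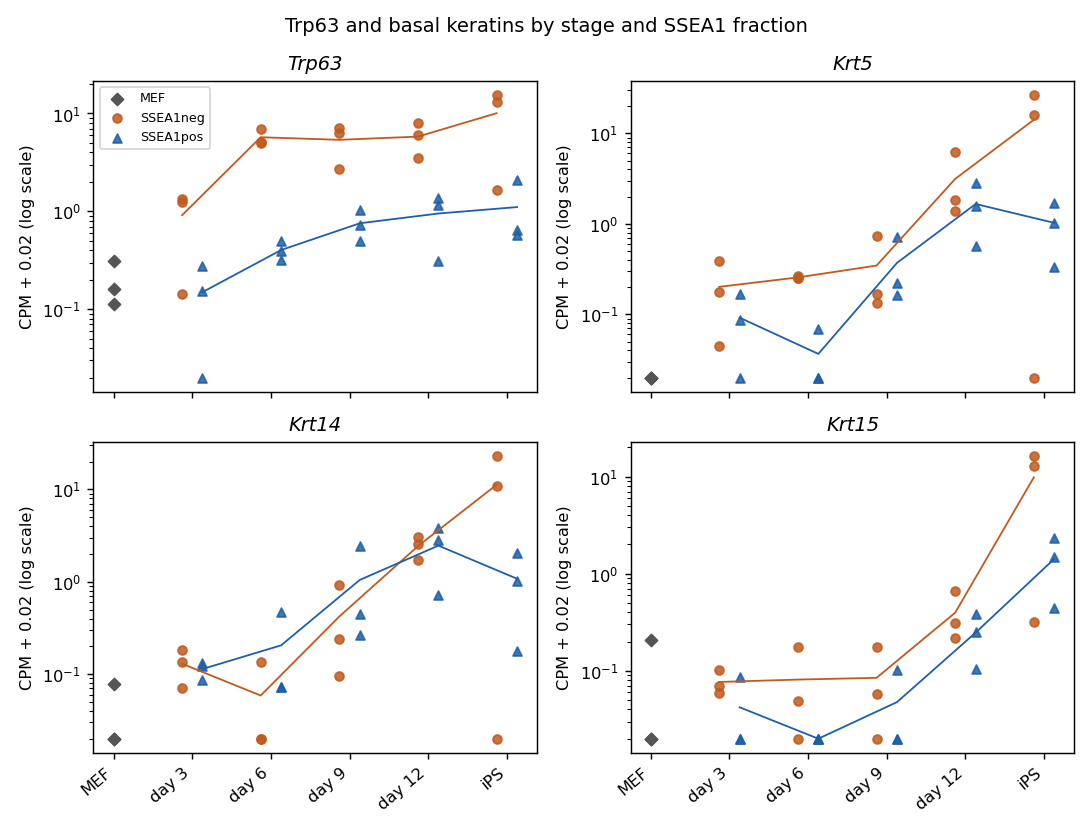
Trp63, Krt5, Krt14 and Krt15 in each of the 33 libraries, in CPM plus 0.02 on a log axis, by stage, with MEF as grey diamonds, SSEA1- cells (SSEA1neg) as orange circles and SSEA1+ cells (SSEA1pos) as blue triangles, and lines through group means. Trp63 was already high in SSEA1- cells at day 6, whereas Krt5, Krt14 and Krt15 reached their highest values at the iPS stage, up to 26.4, 22.8 and 16.2 CPM.

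The basal keratins came later than Trp63. Krt5, the type II keratin of basal cells, had no read in MEF and stayed at 0.232, 0.243 and 0.234 CPM in SSEA1- cells of day 6, when Trp63 was at 5 to 6.99 CPM. It was at 0.718, 0.114 and 0.147 CPM at day 9, 6.18, 1.81 and 1.38 CPM at day 12, and 15.9, 26.4 and 0 CPM at the iPS stage. Over the group, day 12 SSEA1- cells held at least 37.9-fold more Krt5 than the 3 counts over the 3 MEF libraries that a count of 0 allows (0.0853 CPM), and iPS-stage SSEA1- cells at least 150-fold more (235-fold without replicate 3). Both passed the test (adjusted p = 0.0033 and 0.00043). The SSEA1+ libraries held 0.704, 0.205 and 0.144 CPM at day 9, 0.546, 1.57 and 2.8 CPM at day 12 and 1.7, 1 and 0.315 CPM at the iPS stage. That is at least 18.1-fold (adjusted p = 0.0055) and 11.8-fold (adjusted p = 0.012) above the MEF floor. The 2 fractions overlapped at day 12 (difference -0.94 ± 1.11, adjusted p = 0.50).

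Krt14, the usual type I partner of Krt5, had 1 read in MEF. SSEA1- cells held 0.905, 0.0759 and 0.22 CPM at day 9, 2.99, 2.55 and 1.69 CPM at day 12 and 10.8, 22.8 and 0 CPM at the iPS stage. The ratios of pooled CPM to MEF were 86.4 at day 12 (95% exact interval 15.3 to 3427, adjusted p of the fit 0.0095) and 348 at the iPS stage (62.3 to 13778, adjusted p = 0.00095), where the intervals cover counting error only. Without replicate 3 the iPS-stage ratio was 544 (97.3 to 21516). In SSEA1+ cells Krt14 was at 2.4, 0.246 and 0.431 CPM at day 9, 0.691, 3.78 and 2.85 CPM at day 12 and 1.01, 2.01 and 0.157 CPM at the iPS stage. The day 12 rise, 82-fold (14.5 to 3258, adjusted p = 0.0055), held with any library left out. Those of day 9 (36.9-fold, 6.43 to 1479, adjusted p = 0.030) and of the iPS stage (36.5-fold, 6.30 to 1467, adjusted p = 0.024) were each lost on leaving out any MEF library, or SSEA1+ replicate 1 at day 9 (adjusted p up to 0.19) and replicate 2 at the iPS stage (adjusted p up to 0.093). At day 12 the fractions overlapped in Krt14 (difference 0.01 ± 1.12, adjusted p = 0.99).

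Krt15, a keratin of basal and hair follicle stem cells, came last. It had 2 reads in MEF, and at day 12 the level was still 0.644, 0.29 and 0.196 CPM in SSEA1- cells and 0.364, 0.085 and 0.233 CPM in SSEA1+ cells. It was at 12.9, 16.2 and 0.298 CPM in SSEA1- cells of the iPS stage, 162-fold above MEF (44.6 to 1338, adjusted p = 0.00033), and at 2.34, 1.45 and 0.42 CPM in SSEA1+ cells, 24.5-fold above MEF (6.57 to 206, adjusted p = 0.0075). Without SSEA1- replicate 3 the ratio in SSEA1- cells was 250 (68.8 to 2065). From day 12 to the iPS stage it was the 1 gene of the 10 that rose in SSEA1- cells (4.67 ± 1.08, adjusted p = 0.0085, lost without day 12 SSEA1- replicate 3 at adjusted p = 0.062), where 7.21% of tested genes were called. Fitted on those groups alone the change was 4.64 (adjusted p = 0.13). Without iPS-stage SSEA1- replicate 3 it was 5.18 (adjusted p = 0.0013), and Krt7 was then called as well (2.99, adjusted p = 0.014, against 2.51 ± 0.81 and adjusted p = 0.052 with it). In SSEA1+ cells Krt15 changed by 2.58 ± 1.06 over the same step (adjusted p = 0.11).

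All 3 basal keratins were lower in iPS-stage SSEA1+ than SSEA1- cells. The differences were -3.80 ± 1.22 for Krt5 (adjusted p = 0.012), -3.40 ± 1.23 for Krt14 (adjusted p = 0.023) and -2.80 ± 0.99 for Krt15 (adjusted p = 0.021). The fractions overlapped in each case, because SSEA1- replicate 3 held no read of Krt5 or Krt14 and 0.298 CPM of Krt15. Without that library the differences were -4.43, -4.02 and -3.40 (adjusted p = 0.00032, 0.0015 and 0.0014). Without SSEA1- replicate 2 or SSEA1+ replicate 3 the Krt5 call was lost (adjusted p = 0.051 to 0.061). Without either of these, or without SSEA1+ replicate 1 for Krt14 and replicate 2 for Krt15, so were the other calls (adjusted p = 0.059 to 0.14 and 0.052 to 0.090). Fitted on the iPS-stage libraries alone, the differences were of like size and none of the 3 passed (adjusted p = 0.098, 0.14 and 0.097).

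The stress keratins appeared first in SSEA1+ cells. Krt17, a type I keratin that is induced in wounded and activated keratinocytes, had 3 reads in MEF. In SSEA1+ cells it reached 4.09, 0.32 and 0.264 CPM at day 6, 41.8, 5.28 and 14.7 CPM at day 9 and 15.2, 65 and 92.5 CPM at day 12, and stood at 33.5, 13.5 and 19.6 CPM at the iPS stage. SSEA1- cells followed with 0.309, 0.0404 and 0.0293 CPM at day 6, 1.62, 0.304 and 0.881 CPM at day 9, 4.48, 10.7 and 25.7 CPM at day 12 and 17.3, 32.4 and 12 CPM at the iPS stage. At day 9 all SSEA1+ libraries were above all SSEA1- libraries, and at the iPS stage the fractions overlapped. The difference was 4.43 ± 0.95 at day 9 (adjusted p = 0.00082), which held with any library left out, and 0.11 ± 0.80 at the iPS stage (adjusted p = 0.91; -0.20 without SSEA1- replicate 3, adjusted p = 0.86).

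Krt17 differed less securely between the fractions at days 6 and 12. At day 6 the 3.64 ± 1.13 (adjusted p = 0.018) was lost without SSEA1- replicate 2 or 3 and fell to 1.23 without SSEA1+ replicate 1 (adjusted p = 0.53). At day 12 the 2.08 ± 0.83 (adjusted p = 0.039) was lost without SSEA1- replicate 1 or 2 or SSEA1+ replicate 2 or 3 (adjusted p = 0.094 to 0.16), without the low-count filter (adjusted p = 0.094), with DESeq2 (adjusted p = 0.051) and in a fit of those groups alone (adjusted p = 0.059). Relative to MEF, pooled Krt17 was 244-fold higher in SSEA1+ cells at day 9 (95% exact interval 83.3 to 1184, adjusted p = 2.5e-05) and 636-fold at day 12 (217 to 3085, adjusted p = 2.1e-06). For the iPS stage the ratios were 262 in SSEA1+ cells (89.3 to 1270, adjusted p = 1.3e-05) and 224 in SSEA1- cells (76.6 to 1089, adjusted p = 7.5e-05), or 272 without SSEA1- replicate 3 (92.7 to 1319). The day 6 ratio in SSEA1+ cells, 18.9 (6.26 to 93.2, adjusted p = 0.020), was lost without MEF replicate 1 or 3 or SSEA1+ replicate 1, the last at adjusted p = 0.42.

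Krt6a, a type II keratin that rises with Krt16 and Krt17 in injured epithelium, had 1 read in MEF. It was at 3.48, 1.47 and 3.78 CPM in SSEA1+ cells of day 9, against 0.406, 0.038 and 0.588 CPM in SSEA1- cells, without overlap. That difference was 3.14 ± 1.29 and just missed the threshold (adjusted p = 0.056), while the fit with a replicate block called it (3.15, adjusted p = 0.047), as did a fit of those groups alone (adjusted p = 0.015). At day 12 Krt6a was at 0.873, 30.8 and 27.9 CPM in SSEA1+ and 2.99, 10.5 and 11.2 CPM in SSEA1- cells. The ratios to MEF were 101 at day 9 in SSEA1+ cells (17.9 to 3998, adjusted p = 0.0069), 654 at day 12 in SSEA1+ cells (117 to 25855, adjusted p = 0.00020) and 282 at day 12 in SSEA1- cells (50.4 to 11152, adjusted p = 0.0018).

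Krt6a then fell in SSEA1+ cells, to 0.212, 1.56 and 0 CPM at the iPS stage. This step of -5.07 ± 1.34 (adjusted p = 0.012) was the 1 call among the 10 genes between day 12 and iPS-stage SSEA1+ cells, where 9.49% of tested genes were called. It was lost without iPS-stage SSEA1+ replicate 1 or 3 (adjusted p = 0.054 to 0.057) and in a fit of those groups alone (adjusted p = 0.061). In iPS-stage SSEA1- cells Krt6a stayed at 3.91, 20.8 and 0.186 CPM, 239-fold above MEF (42.6 to 9446, adjusted p = 0.0020), or 369-fold without replicate 3 (65.9 to 14605). The SSEA1 difference at the iPS stage, -3.81 ± 1.28 (adjusted p = 0.015), fell to -1.78 without SSEA1- replicate 2 (adjusted p = 0.25), was lost without SSEA1+ replicate 1 or 3, and was -6.32 without SSEA1+ replicate 2 and -4.42 without SSEA1- replicate 3 (adjusted p = 0.0053 and 0.0028). Of the 50-base sequences of Krt6a, 57.2% occur in another gene too and 40.2% in Krt6b, so its counts are uncertain. Krt6b itself reached a group mean of 1.33 CPM at most, in day 12 SSEA1+ cells.

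**Figure D2:**
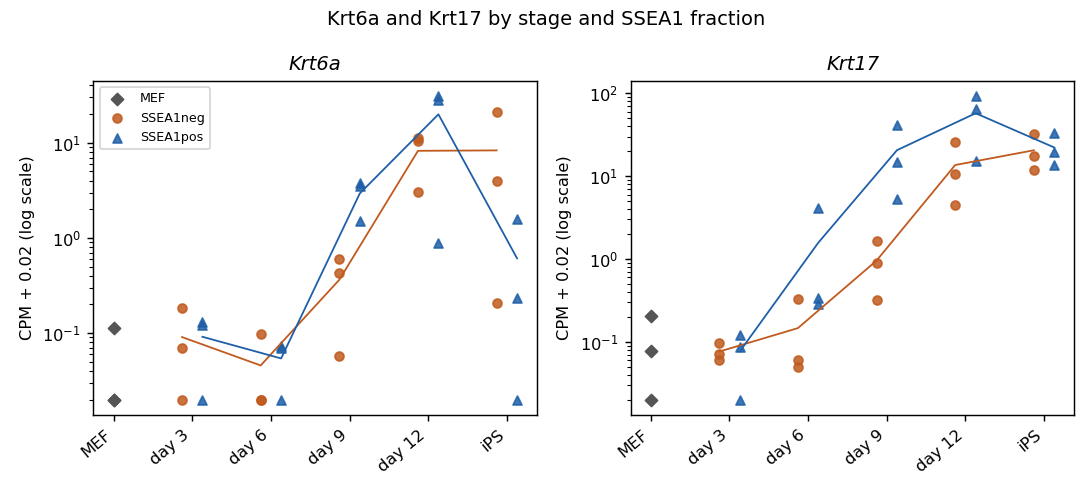
Krt6a and Krt17 in each library, in CPM plus 0.02 on a log axis, by stage, with MEF as grey diamonds, SSEA1- cells (SSEA1neg) as orange circles, SSEA1+ cells (SSEA1pos) as blue triangles and lines through group means. At day 9 both genes were higher in every SSEA1+ library than in any SSEA1- library, and Krt6a dropped in SSEA1+ cells from day 12 to the iPS stage.

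Krt8 and Krt18, the filament partners of simple epithelium, did not rise together. Krt8 stood at 3.25, 1.3 and 2.64 CPM in MEF. In SSEA1+ cells it was at 11.1, 7.69 and 8.39 CPM at day 3, 80.4, 8.49 and 16.4 CPM at day 6, 337, 60.8 and 180 CPM at day 9 and 171, 217 and 261 CPM at day 12, then at 82.2, 27.3 and 15.5 CPM at the iPS stage. In SSEA1- cells the levels were 9.81, 9.62 and 14 CPM at day 3, 13.5, 2.99 and 5.5 CPM at day 6, 20, 5.81 and 15.9 CPM at day 9, 62.5, 57.9 and 71.1 CPM at day 12 and 184, 267 and 15.5 CPM at the iPS stage. The SSEA1+ cells thus led at days 9 and 12, when the fractions did not overlap, and 2 of the 3 SSEA1- libraries were highest at the iPS stage.

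Krt8 was 3.79 ± 0.86 higher in SSEA1+ than in SSEA1- cells at day 9 (adjusted p = 0.0013, held with any library left out). At day 6 the 2.26 ± 0.82 (adjusted p = 0.041) rested on SSEA1+ replicate 1, without which it was 0.74 (adjusted p = 0.54), and was also lost without SSEA1- replicate 2 or 3, without the low-count filter (adjusted p = 0.10), with the GC trend removed (adjusted p = 0.094) and in a fit of those groups alone (adjusted p = 0.12). At day 12 the 1.76 ± 0.79 missed the threshold (adjusted p = 0.064) and passed with a replicate block (1.81, adjusted p = 0.030), with DESeq2 (adjusted p = 0.0496) and in a fit of those groups alone (adjusted p = 0.00062). At the iPS stage the sign turned, at -1.90 ± 0.79 (adjusted p = 0.047). That call was lost without SSEA1- replicate 1 or 2 or SSEA1+ replicate 2 or 3 (adjusted p = 0.083 to 0.23), without the low-count filter (adjusted p = 0.067) and in a fit of those groups alone (adjusted p = 0.13). The change was -1.26 without SSEA1- replicate 2, -2.95 without SSEA1+ replicate 1 and -2.48 without SSEA1- replicate 3. The shift in the SSEA1 difference from day 12 to the iPS stage, -3.66 ± 1.12, did not pass the test (adjusted p = 0.091), though it did with a replicate block (-4.02, adjusted p = 0.026), with DESeq2 (-3.67, adjusted p = 0.021), and without SSEA1- replicate 3 (-4.17, adjusted p = 0.019).

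Relative to MEF, Krt8 rose in SSEA1+ cells by 3.85 ± 0.92 at day 6 (adjusted p = 0.0012, and 2.35 without SSEA1+ replicate 1), 6.30 ± 1.00 at day 9 (adjusted p = 1.1e-05), 6.47 ± 1.01 at day 12 (adjusted p = 5.9e-06) and 4.09 ± 0.93 at the iPS stage (adjusted p = 0.00044). In SSEA1- cells it rose by 4.71 ± 0.95 at day 12 (adjusted p = 0.00035) and 6.0 ± 0.99 at the iPS stage (adjusted p = 5.7e-05; 6.55 without replicate 3). The earlier rises there, 2.19 ± 0.89 at day 3 (adjusted p = 0.047) and 2.51 ± 0.90 at day 9 (adjusted p = 0.028), were lost in 6 of 6 and 5 of 6 omissions of a library (adjusted p = 0.060 to 0.18 and 0.057 to 0.11). Of the 50-base sequences of Krt8, 29.7% occur elsewhere and 26.9% in the pseudogene Krt8-ps.

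Krt18 was the more abundant of the pair per kilobase in fibroblasts, as given further on, and rose later than Krt8. It was at 18.1, 18.2 and 9.05 CPM in MEF, at 16, 7.6 and 8.05 CPM in SSEA1- and 7.85, 3.91 and 2.46 CPM in SSEA1+ cells of day 3, and at 22.8, 6.11 and 6.1 CPM in SSEA1- and 56.4, 13.1 and 29 CPM in SSEA1+ cells of day 9. At day 12 SSEA1+ cells held 95.4, 59.9 and 104 CPM and SSEA1- cells 74.1, 48.3 and 36.1 CPM. In the final stage SSEA1+ cells held 159, 101 and 21.2 CPM and SSEA1- cells 247, 342 and 14.3 CPM, so that the 2 highest libraries were SSEA1- replicates 1 and 2.

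The rise of Krt18 over MEF passed the test at day 12 in SSEA1+ cells (2.5 ± 0.88, adjusted p = 0.016, lost without MEF replicate 3 at adjusted p = 0.069) and at the iPS stage in SSEA1+ cells (2.62 ± 0.88, adjusted p = 0.012, lost without MEF replicate 3 or SSEA1+ replicate 1 at adjusted p = 0.053 to 0.074). It passed in iPS-stage SSEA1- cells too (3.72 ± 0.92, adjusted p = 0.0027; 4.28 without replicate 3), which overlap MEF through replicate 3, and the call held with any library left out. No SSEA1 difference in Krt18 passed at any stage (adjusted p = 0.17 to 0.66). With a replicate block the day 9 difference of 1.64 did (adjusted p = 0.046), as did the fall from MEF to day 3 SSEA1+ cells (-1.81, adjusted p = 0.034).

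**Figure D3:**
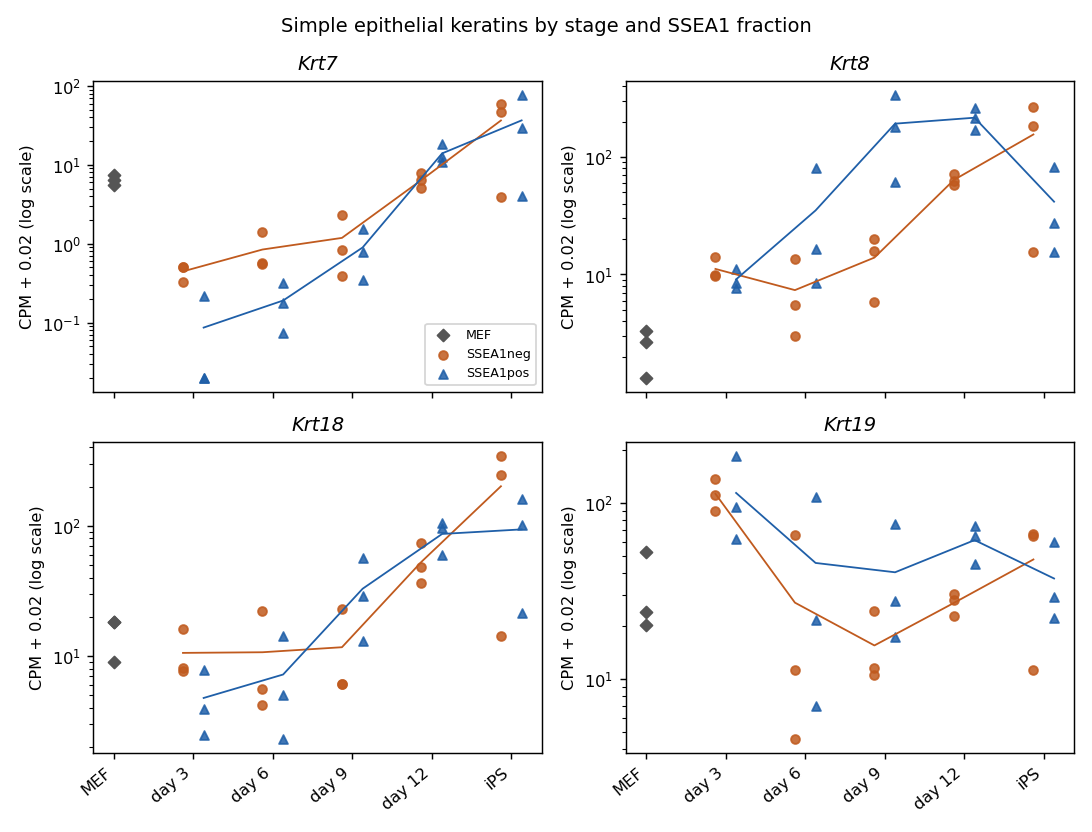
Krt7, Krt8, Krt18 and Krt19 in each library, in CPM plus 0.02 on a log axis, by stage, with MEF as grey diamonds, SSEA1- cells (SSEA1neg) as orange circles, SSEA1+ cells (SSEA1pos) as blue triangles and lines through group means. Krt8 rose in SSEA1+ cells by day 9 to between 60.8 and 337 CPM, Krt7 fell below MEF until day 9, and Krt19 peaked at day 3.

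Krt7, the type II keratin of ducts and bladder, fell below its fibroblast level and came back. MEF held 7.5, 5.49 and 6.4 CPM. At day 3 it was at 0.486, 0.31 and 0.48 CPM in SSEA1- cells and 0, 0.199 and 0 CPM in SSEA1+ cells, without overlap with MEF, and fell by 3.90 ± 0.92 (adjusted p = 0.0013) and 6.84 ± 1.23 (adjusted p = 6.6e-05) on the log2 scale. Those SSEA1+ cells held 3 Krt7 reads in all, a pooled ratio to MEF of 0.00734 (95% exact interval 0.00150 to 0.0217), and the fitted change of so few reads depends on the prior count. It was still lower at day 6, by -2.98 ± 0.87 in SSEA1- (adjusted p = 0.0079) and -5.19 ± 1.06 in SSEA1+ cells (adjusted p = 0.00024). At day 9 the changes were -2.43 ± 0.85 in SSEA1- cells (adjusted p = 0.026, lost without MEF replicate 1 or SSEA1- replicate 1 or 3) and -2.88 ± 0.87 in SSEA1+ cells (adjusted p = 0.0075).

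By day 12 Krt7 was at 6.38, 7.77 and 5.07 CPM in SSEA1- cells, within the range of MEF (change -0.01 ± 0.79, adjusted p = 0.99), and at 12.7, 11 and 18.1 CPM in SSEA1+ cells, above every MEF library (1.11 ± 0.79, adjusted p = 0.23). The iPS stage brought the highest levels, 46.8, 59 and 3.84 CPM in SSEA1- and 76.5, 29.4 and 3.99 CPM in SSEA1+ cells, with replicate 3 of each fraction below every MEF library. The rise over MEF was 2.5 ± 0.82 in SSEA1+ cells (adjusted p = 0.0099), which became 1.30 without SSEA1+ replicate 1 (adjusted p = 0.18). In SSEA1- cells it was 2.49 ± 0.82 (adjusted p = 0.019), lost without MEF replicate 2 or 3 or SSEA1- replicate 2 (adjusted p = 0.057 to 0.083) and 3.04 without SSEA1- replicate 3 (adjusted p = 0.0026). That rise was also lost in a fit of those groups alone (2.56, adjusted p = 0.065). Krt7 was lower in every SSEA1+ than in every SSEA1- library at days 3 and 6 and higher at day 12, and none of those differences passed the test (adjusted p = 0.17, 0.13 and 0.24). The day 12 difference did in a fit of those groups alone (1.03, adjusted p = 0.021). The turn from day 3 to day 12 was 4.06 ± 1.57 (adjusted p = 0.073), and 4.37 with a replicate block (adjusted p = 0.046). It was 4.07 with DESeq2 (adjusted p = 0.021) and 4.03 in a fit of those groups alone (adjusted p = 0.013).

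Krt19, the shortest keratin and the one without a tail domain, was the main keratin of the fibroblasts and peaked at day 3. It was at 52.7, 24.1 and 20.2 CPM in MEF, 136, 90.3 and 111 CPM in SSEA1- and 184, 62.7 and 94.7 CPM in SSEA1+ cells of day 3. All 6 day 3 libraries were above all MEF libraries, but the changes of 1.79 ± 0.83 in SSEA1- and 1.81 ± 0.83 in SSEA1+ cells missed the threshold (adjusted p = 0.084 and 0.079). With a replicate block both passed (1.98 and 1.84, adjusted p = 0.014 and 0.020), as they did in fits of the compared groups alone (1.71 and 1.66, adjusted p = 0.0058 and 0.018). At later stages Krt19 ran from 4.56 to 108 CPM, and no comparison of it with MEF or between fractions was called in the main fit. A fit of the day 12 fractions alone called it higher in SSEA1+ cells (1.09, adjusted p = 0.0055).

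**Figure D4:**
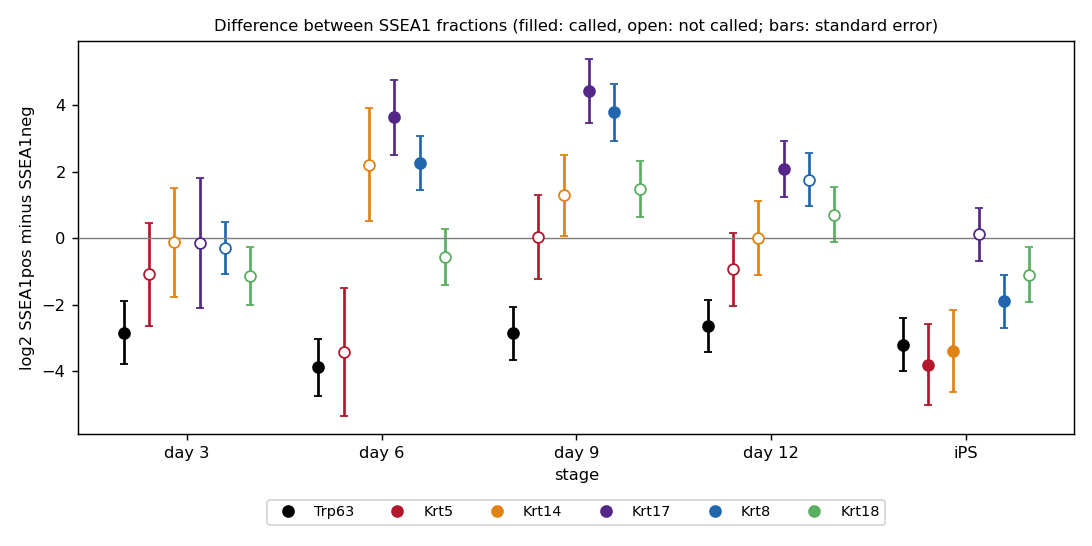
Log2 difference SSEA1+ minus SSEA1- (SSEA1pos minus SSEA1neg) for Trp63, Krt5, Krt14, Krt17, Krt8 and Krt18 at each stage, with standard errors as bars, filled where called. Trp63 lay below 0 at every stage, Krt17 and Krt8 lay above 0 at days 6, 9 and 12, and at the iPS stage Krt5, Krt14 and Krt8 lay below 0.

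In the order of group means, neighbouring groups mostly did not separate: over the 10 genes, the library ranges overlapped in 91 of 100 such pairs. Trp63 had 3 of the 9 that did not, with day 9 SSEA1- cells above iPS-stage SSEA1+ cells, day 9 above day 6 SSEA1+ cells, and day 6 SSEA1+ cells above MEF. Krt7 had 4, and Krt17 and Krt19 had 1 each. The same count over all tested genes was not made, so these numbers set the 10 genes apart from no others.

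Counted over the 10 genes, 1 to 3 of them were called between the fractions at each day before the iPS stage. At day 3, 1 was called, Trp63, where 6.67% of tested genes were. Trp63 was lower and Krt8 and Krt17 were higher in SSEA1+ cells at days 6 and 9, that is 3 of 10, where 16.4% and 25.2% of tested genes were called. At day 12, 2 were called, Krt17 higher and Trp63 lower, against 35.9% of tested genes. With a replicate block the counts were 1, 3, 5 and 3 at days 3, 6, 9 and 12. The block called 8.8%, 18.9%, 27.7% and 38.2% of tested genes there. At the iPS stage 6 were called and all 6 were lower in SSEA1+ cells (Trp63, Krt5, Krt14, Krt15, Krt6a and Krt8), against 37.4% of tested genes called and 21.3% called lower. Left-out libraries took that count down to 1 at the least, and a fit of the iPS-stage libraries alone called 1, Trp63, against 28.8% of tested genes. No gene of the 10 was called for a change in the SSEA1 difference between day 12 and the iPS stage (3 at an unadjusted p under 0.05, 1 with DESeq2, and Krt6a and Krt8 without iPS-stage SSEA1- replicate 3), where 1.85% of tested genes were called, or between days 3 and 12 (1 unadjusted, 1 with DESeq2), where 14.1% were. DESeq2 called 3.91% and 17.7% of tested genes for these 2 changes.

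Against MEF the number of genes that rose grew with time in both fractions. In SSEA1+ cells 0, 2, 4, 7 and 8 of 10 rose at days 3, 6, 9 and 12 and at the iPS stage, where 15.6%, 16.9%, 20.6%, 26.5% and 27.9% of tested genes rose. There 1, 1, 1, 0 and 0 fell, against 16.7%, 16.6%, 18%, 20.2% and 22.5% of tested genes. In SSEA1- cells 1, 1, 2, 6 and 9 rose, against 15.3%, 15.8%, 14.9%, 17% and 19.1% of tested genes, and 1, 1, 1, 0 and 0 fell, against 14.9%, 12.4%, 11.6%, 11.1% and 7.7%. Krt7 was the gene that fell in each case, and Krt19 the gene that did not rise at the iPS stage in SSEA1- cells. The 10 comparisons share the 3 MEF libraries, so their counts are not independent.

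Per kilobase of exon, the mix of the 9 keratins changed from Krt19 to Krt8 and Krt18. Krt19 made up 47.4 to 64.9% of keratin reads per kilobase in MEF and 81.5 to 89.8% in the 6 day 3 libraries. Krt8 led in every SSEA1+ library of days 9 and 12, and Krt18 in every SSEA1- library of the iPS stage. The basal and stress keratins together made up 0.375 ± 0.516% in MEF (SD, n = 3), 1.23 ± 0.431% and 1.78 ± 0.724% in SSEA1- and SSEA1+ cells of day 6, and 4.25 ± 1.66% and 8.93 ± 1.51% at day 9. At day 12 they made up 15.3 ± 7.05% and 17.4 ± 10.1%, and at the iPS stage 15.9 ± 7.75% and 15.6 ± 8.28%, the SSEA1- mean being 11.5% without replicate 3. The simple epithelial keratins made up the rest, at least 74.9% in each library. Without Krt6a and Krt17 the share was 3.30% and 1.06% at day 12 and 4.84% and 1.63% at the iPS stage, where it was 6.92% in SSEA1- cells without replicate 3.

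**Figure D5:**
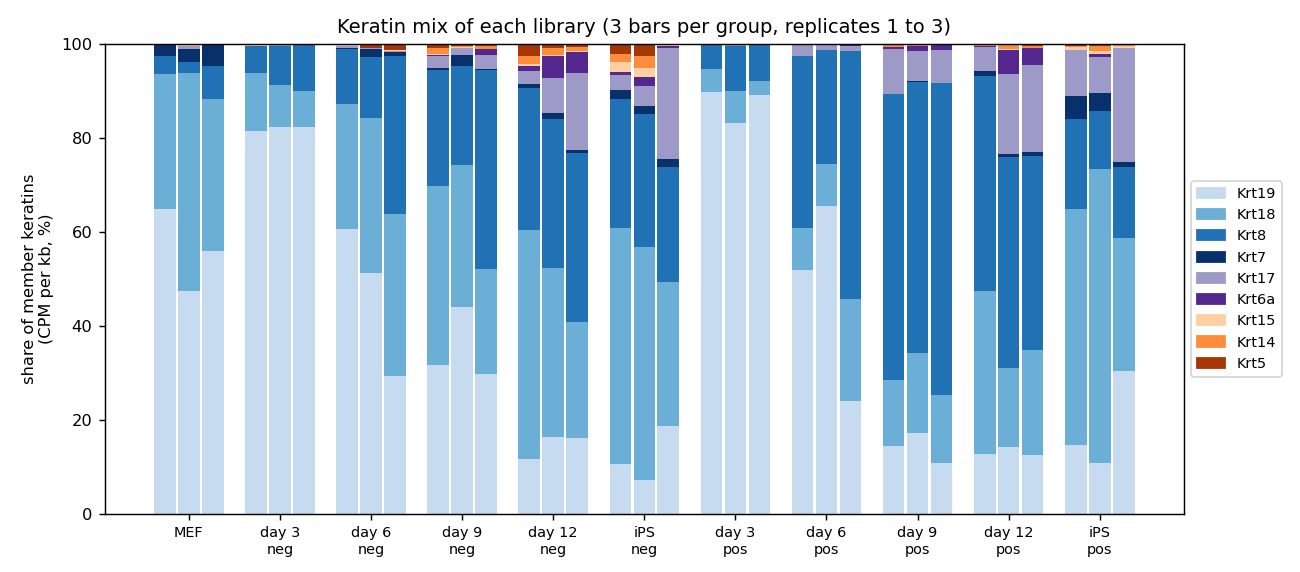
Share of each of the 9 keratins in the sum of their CPM per kilobase of merged exon length, in percent, with 1 bar per library and replicates 1 to 3 side by side (neg, SSEA1-; pos, SSEA1+). Krt19 was the largest part of the MEF and day 3 bars, and Krt8 the largest part of the SSEA1+ bars of days 9 and 12. Basal and stress keratins together were visible at day 12 and the iPS stage, with Krt17 the largest of them in the SSEA1+ bars.

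The ratio of Krt8 to Krt18 per kilobase traced the imbalance between the partners. It was 0.133 ± 0.081 in MEF (SD, n = 3). In SSEA1+ cells it was 1.66 ± 0.759 at day 3, 3.09 ± 0.913 at day 6, 4.12 ± 0.624 at day 9, 1.94 ± 0.676 at day 12 and 0.371 ± 0.169 at the iPS stage. In SSEA1- cells it stayed between 0.604 ± 0.320 (day 6) and 1.08 ± 0.715 (day 9) and was 0.640 ± 0.138 at the iPS stage. At days 6 and 9 the lowest SSEA1+ libraries, at 2.42 and 3.40, were above the highest SSEA1- libraries, at 0.972 and 1.91. The iPS stage had the opposite order, with the SSEA1+ libraries at 0.379, 0.199 and 0.536 all below the SSEA1- libraries at 0.548, 0.574 and 0.799. Part of Krt8 cannot be counted uniquely: over the 50-base sequences found in no other gene the ratio was 5.82 in day 9 SSEA1+ cells and 0.188 in MEF.

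Correlations between the genes are of log2 CPM over all 33 libraries, which share groups and replicates, and are a description. Krt5 and Krt14 had a Pearson r of 0.92, Krt17 and Krt8 0.87, Krt14 and Krt6a 0.87, and Krt7 and Krt18 0.85, above the 0.74 of the partners Krt8 and Krt18. Trp63 had 0.62 with Krt5, 0.46 with Krt14, 0.29 with Krt8 and -0.32 with Krt19. Krt19 had -0.01 to 0.30 with the other 8 keratins. Among 11298 candidate genes, those most like Trp63 were Surf1 (r = 0.90), Penk (0.88), Enpp5 (0.88), Fbxo36 (0.86) and Hp (0.86). Among those most like Krt14 were Tmprss2 (0.87), Cyp26a1 (0.85) and Clic6 (0.84), and among those most like Krt8 were Cldn6 (0.92), Dsp (0.92), Cdcp1 (0.91) and Ocln (0.90). Cldn6 and Ocln encode tight junction proteins and Dsp a desmosomal one.

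Genes around the keratins were counted by fixed lists. Over all tested genes, 6.31%, 11.5%, 18% and 16% were called higher and 10.1%, 13.7%, 18% and 21.3% lower in SSEA1+ than in SSEA1- cells at days 6, 9, 12 and the iPS stage, the shares to read the counts between fractions against. Of 15 simple epithelium genes, all rose in day 9 SSEA1+ and in iPS-stage SSEA1- cells against MEF, with a median log2 change of 8.06 and 7.01 (genes without a read in MEF set at their bound) against 0.21 and 0.19 over all genes. Between fractions 11, 13, 12 and 8 were higher in SSEA1+ cells at days 6, 9, 12 and the iPS stage and none was lower. Among them Epcam, a cell adhesion molecule of epithelial and pluripotent cells, differed by 3.30 ± 0.49 at day 9 and 1.25 ± 0.45 at the iPS stage (adjusted p = 2.0e-05 and 0.024). Cdh1, the cadherin of adherens junctions, differed by 2.49 ± 0.70 at day 9 (adjusted p = 0.0067) and by 1.59 ± 0.68 at the iPS stage (adjusted p = 0.052). At the iPS stage these 8 genes were thus higher in SSEA1+ cells, while Trp63 and 5 keratins were higher in SSEA1- cells.

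Genes of basal cell attachment were counted between the fractions in the same way. Of 10 genes of hemidesmosomes and basement membrane, which anchor basal cells, 2 were higher and 1 lower in SSEA1+ cells at day 9 and 0 and 2 at the iPS stage, where 25.2% and 37.4% of tested genes were called. Itgb4, the integrin chain of the hemidesmosome, was at 3.6, 3.63 and 5.98 CPM in MEF and already at 638, 303 and 243 CPM in day 6 SSEA1- cells (6.51 ± 0.58, adjusted p = 8.8e-09), but differed by 0.86 ± 0.45 from SSEA1+ cells (adjusted p = 0.16). At the iPS stage it was lower in SSEA1+ cells (-2.24 ± 0.47, adjusted p = 0.00037). Of 10 desmosome genes, whose plaques tie keratin filaments to the membrane, 5 were higher and 0 lower at day 9 and 2 and 3 at the iPS stage (11.5% and 13.7%, then 16% and 21.3% of tested genes). Dsp, the plaque protein that binds keratin, differed by 2.3 ± 0.68 at day 9 (adjusted p = 0.0092) and -0.65 ± 0.65 at the iPS stage (adjusted p = 0.40). Perp, a desmosomal protein and known p63 target, was higher than in MEF by 8.82 ± 1.19 in day 6 SSEA1- cells (adjusted p = 3.1e-06) and showed no called SSEA1 difference at days 6, 9 and 12 or the iPS stage (adjusted p = 0.19 to 1).

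Of 16 basal epithelial regulators other than Trp63, 9 were higher and 1 lower in SSEA1+ cells at day 9, 10 and 1 at day 12, and 6 and 4 at the iPS stage, with medians of 1.89, 1.65 and 1.03 against 0.025, 0.06 and 0.06 over all genes. Tfap2c, an AP-2 factor, was higher in SSEA1+ cells at day 9 (2.90 ± 0.82, adjusted p = 0.0071) and at the iPS stage (2.27 ± 0.79, adjusted p = 0.019), and so was Notch1, a receptor of epidermal differentiation (1.80 ± 0.35 and 1.55 ± 0.35, adjusted p = 0.00034 and 0.00073). Cdh3, the cadherin of basal cells, turned from -2.79 ± 0.51 at day 6 (adjusted p = 0.00031) to 2.25 ± 0.45 at day 12 (adjusted p = 0.00020). Fgfr2 was lower in SSEA1+ cells at the iPS stage (-1.71 ± 0.34, adjusted p = 0.00023). Of 9 genes of the cornified layer tested, 4 were higher and none lower in SSEA1+ cells at day 9, and 1 and 3 at the iPS stage, the latter 4 of 9 called against 37.4% of tested genes. Tgm1, the transglutaminase that crosslinks the cornified envelope, differed by 2.90 ± 0.88 at day 9 (adjusted p = 0.011).

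The other 45 keratin genes made up 3.56 to 41.7% of keratin CPM per library (median 15.6%). They were at 40.1% and 41.7% in day 6 SSEA1- replicates 2 and 3 and at 41.4% in iPS-stage SSEA1- replicate 3, where the 9 keratins were low. Of these 45, 9 reached a group mean of 1 CPM, and 4 had no read in any library. Krt13, a type I keratin of the oral and oesophageal lining, was highest at day 3 at 13.8, 7.75 and 12.3 CPM in SSEA1- cells. Krt42 was at 21.6, 15.2 and 41.6 CPM in iPS-stage SSEA1+ cells and at 0.48, 0.161 and 28.8 CPM in SSEA1- cells, so replicate 3 was the high library here. At the iPS stage 4 of the 12 tested were lower in SSEA1+ cells and none higher, against 21.3% and 16% of tested genes, Krt10 among the 4 (-1.12 ± 0.29, adjusted p = 0.0023). Of the 12 other intermediate filament genes, Vim, the fibroblast filament, was at 5018 to 6977 CPM in MEF, 3384, 4795 and 4340 CPM in day 12 SSEA1- cells, and 256, 333 and 539 CPM in day 12 SSEA1+ cells (-3.47 ± 0.37, adjusted p = 1.5e-07).

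Markers of other cell types also differed between the fractions. The 10 fibroblast markers, all detected in every group, summed to 2795 to 14382 CPM in SSEA1- and 47.4 to 1761 CPM in SSEA1+ libraries. MEF held 75968 to 83812 CPM of these markers and 0.093 to 0.291 CPM of Trp63. Among iPS-stage SSEA1- libraries, replicate 3 had the highest sum, 14382 CPM, and the lowest Trp63, 1.64 CPM. Which cells carried Trp63 was not tested. The 9 extraembryonic endoderm markers summed to 88.6 to 439 CPM in SSEA1- and 14.1 to 80.1 CPM in SSEA1+ libraries, and to 166 to 218 CPM in MEF. Sox17, Afp or Foxa2 was at 0 in the SSEA1+ cells of days 3, 6 and 9. Of 8 tested, 1, 3, 1 and 4 were called lower in SSEA1+ cells at days 6, 9, 12 and the iPS stage. Called higher were 0, 1, 1 and 1. Over all tested genes 10.1%, 13.7%, 18% and 21.3% were lower and 6.31%, 11.5%, 18% and 16% higher. The 5 mesothelium markers matched to counts, of 6 listed and all 5 detected, summed to 33.6 to 182 CPM in SSEA1- and 9.48 to 24.7 CPM in SSEA1+ cells of day 9, with Msln, encoding mesothelin, the bulk of them at 177, 25.1 and 33.2 CPM in SSEA1- cells. For iPS-stage cells these sums overlapped, at 21 to 55.4 CPM in SSEA1- and 24.2 to 102 CPM in SSEA1+ libraries. The 10 trophoblast markers summed to 15.2 to 81 CPM in SSEA1+ and 4.37 to 19.6 CPM in SSEA1- cells of day 9. These ranges overlapped. Hand1, Tpbpa and Prl3d1 were at 0 in those SSEA1+ cells, and Tpbpa and Prl3d1 at 0 in those SSEA1- cells. Of 7 tested, 2 were called higher in SSEA1+ cells and 0 lower, against 11.5% and 13.7% of tested genes. Their median log2 change was 0. At day 12 the trophoblast sums were 54.2 to 63.8 CPM in SSEA1+ and 14.7 to 25.6 CPM in SSEA1- cells, without overlap. There 2 of 7 were called higher and 0 lower in SSEA1+ cells, against 18% and 18% of tested genes. By the iPS stage the ranges overlapped again. In iPS-stage SSEA1- libraries the 10 trophoblast markers summed to 38, 67.9 and 17.1 CPM with all 10 detected, in the order of the basal keratin levels. That order was not particular to them. Extraembryonic endoderm (234, 439 and 88.6 CPM), mesothelium (29.6, 55.4 and 21 CPM) and macrophage markers had it too. Sums of fibroblast, pluripotent cell, endothelium and neural markers did not. The 6 macrophage markers stood at 24.6, 511 and 19.3 CPM in those SSEA1- libraries, and replicate 2 was the high library for them and for Krt5, Krt14, Krt15 and Krt6a. The part of these cells in the results was not tested.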

How the data were processed

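Counts of reads per Ensembl gene were deposited by the authors as 1 table per library, not normalized. Per the submitters' processing notes, STAR 2.3.0, Picard 1.100, HTSeq 0.6.0 and build mm9 were used, with no role given for each, and the labels give no annotation release. Per the labels' protocols the library kit marks strand, and whether counting used strand is not settled, so reads of antisense partners cannot be told apart. Symbols came from GENCODE M21 (32860 of 37583 IDs), which belongs to another build and gave names, exon lengths and 50-base sequences shared between genes, but no coordinates. Reads in no gene (4.42 to 15.51% of uniquely aligned reads), ambiguous reads (2.41 to 3.15%) and reads with several alignments (14.95 to 27.24% of all reads) stayed out.

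Tests used edgeR 4.0.16 (R 4.3.3): quasi-likelihood fits with robust dispersion, TMM scaling and filterByExpr, with group means of the 33 libraries in 1 model (22 residual degrees of freedom), on 17326 genes. Changes are relative to this scaling, under which the median log2 change of all genes reached 0.261 (day 12 SSEA1+ against MEF). Standard errors are approximate: log2 change over root F. The 19 comparisons were 10 against MEF, 5 of the fractions, 2 steps from day 12 to the iPS stage and 2 changes of the SSEA1 difference. Alternatives were RLE size factors, no low-count filter, DESeq2 1.42.0, a replicate block, removal of the GC trend, a fit of the compared groups alone and each library left out. The model's steps were tested on simulated data. Ratios to MEF use pooled reads with 95% exact intervals. Without molecular identifiers reads are no independent molecules, so intervals and floors (3 counts) cover counting error only.

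Same-numbered libraries were taken as paired, from the data alone, where each correlation of their deviations from group means was over 0.1. This held for the sort, with correlations of 0.351 to 0.468 on day 3, 0.3 to 0.555 on day 6, 0.182 to 0.311 on day 9 and 0.176 to 0.239 on day 12. It held against MEF for SSEA1+ cells of day 3 (0.154 to 0.231), day 6 (0.113 to 0.14) and day 12 (0.158 to 0.202), and for the SSEA1- step from day 12 to the iPS stage (0.271 to 0.447).

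The 10 genes and all lists were chosen with earlier results of these data known. Other genes are named by a rule: up to 4 of each list with the highest mean CPM, and the 5 genes most correlated with Trp63, Krt14 and Krt8 among tested genes with a group mean of at least 10 CPM, with a prior count of 2. Some genes the rule picks are not reported here. Msln, Krt6b, Krt16 and Tpbpa, Hand1, Prl3d1, Sox17, Afp and Foxa2 were named after their values were seen.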

Additional observations from a re-analysis of the deposited data

How the results depend on the processing

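Of 190 combinations of gene and comparison 63 were called. With each library left out in turn 40 of these stayed called and 23 were lost in at least 1 omission, each named in the report. No called change reversed under the alternatives run. The number of the 10 genes called moved by over 1.5 times as follows. The share of all tested genes called under the same setting is in brackets. With a replicate block it was 4 in place of 1 (33.3%) for day 3 SSEA1+ cells against MEF and 5 in place of 3 (27.7%) for the fractions at day 9. It was 2 in place of 1 (11.4%) for the SSEA1+ step from day 12 to the iPS stage. For both changes of the SSEA1 difference it was 1 in place of 0 (2.87% to the iPS stage, 16.7% to day 12). The block changed no other count by that much, and single calls it added elsewhere were Krt19 in day 3 and Krt18 in day 12 SSEA1- cells against MEF and Krt8 at the day 12 sort. With the block and the GC trend removed together the counts were 3 (33.3%) for day 3 SSEA1+ cells and 2 (12.7%) for the SSEA1+ step. They were 1 for each change of the SSEA1 difference (3.32% to the iPS stage, 18.4% to day 12). They were 0 (7.15%) for the day 3 sort and 2 (9.83%) for the SSEA1- step. With the GC trend removed alone they were 0 (5.6%) at the day 3 sort and 2 (8.15%) at the SSEA1- step. With DESeq2 they were 2 (28.9%) for day 3 SSEA1+ and 5 (24.8%) for day 9 SSEA1- cells against MEF. They were 2 for each step (10.6% in SSEA1+, 8.48% in SSEA1- cells). They were 1 for each change of the SSEA1 difference (3.91% to the iPS stage, 17.7% to day 12). RLE size factors gave 1 (29.3%) for day 3 SSEA1- cells and 2 (7.27%) for the SSEA1- step. Without the low-count filter there was 1 each for day 3 (18.3%) and day 9 (15.7%) SSEA1- cells and the day 12 sort (22%), and 0 at the day 3 sort (3.46%). Fitted on the compared groups alone, fewer genes and libraries enter, and not all 10 genes passed the low-count filter. Against MEF the counts were 4 of 4 tested (35.3%) for day 3 SSEA1+, 5 of 6 (52.4%) for iPS-stage SSEA1+ and 4 of 6 (19%) for iPS-stage SSEA1- cells. For the sort they were 0 of 3 (7.44%), 1 of 5 (15.7%), 4 of 9 (37.5%) and 1 of 10 (28.8%) at days 3, 6, 12 and the iPS stage. They were 0 of 10 (1.25%) for the SSEA1- step and 2 of 9 (16.5%) for the change from day 3 to day 12. The cause of these shifts was not tested.

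With libraries left out, the counts against MEF in SSEA1+ cells of days 3, 6, 9, 12 and the iPS stage ranged from 1 to 1, 2 to 3, 4 to 5, 5 to 7 and 5 to 8, and in SSEA1- cells from 1 to 2, 2 to 2, 1 to 4, 6 to 6 and 8 to 9. For the sort they ranged from 0 to 1, 1 to 4, 3 to 3, 1 to 2 and 1 to 6, for the steps from 0 to 1 (SSEA1+) and 0 to 2 (SSEA1-), and for the changes of the SSEA1 difference from 0 to 2 (iPS stage) and 0 to 1 (day 12).

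Over all genes, calls without the 2-fold threshold were 2061, 4690 and 6726 in place of 1155, 2847 and 4374 for the sort at days 3, 6 and 9. Fitted on the compared groups alone they were 2745 in place of 4636 for iPS-stage SSEA1- cells against MEF and 196 in place of 1250 for the SSEA1- step. For the change of the SSEA1 difference from day 12 to the iPS stage they were 645 with DESeq2, 497 with the block, 576 with block and GC trend, and 0 on those groups alone, in place of 321. Higher calls were 48.3% of the calls in day 3 SSEA1+ and 50.7% in day 3 SSEA1- cells against MEF and 37.6% and 39.9% with DESeq2, and at the iPS-stage sort 42.9% and, with the GC trend removed, 56.4%. Without Krt6a and Krt17 the share of basal and stress keratins was 1.40% in SSEA1- and 0.465% in SSEA1+ cells of day 9, 0.206% in day 6 and 0.160% in day 3 SSEA1+ cells, 3.30% and 1.06% in SSEA1- and SSEA1+ cells of day 12 and 4.84% and 1.63% at the iPS stage. Over sequences found in no other gene, a choice added after seeing the data, the Krt8 to Krt18 ratio was 0.905 in iPS-stage SSEA1- cells and 4.36, 5.82 and 2.74 in SSEA1+ cells of days 6, 9 and 12. Depth limits the basal keratins in MEF, where Krt5, Krt14, Krt15, Krt6a and Krt17 had 0 to 3 reads over 3 libraries.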
